A study of Mus musculus with 32 samples.

Results

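Arntl, Clock and Npas2 encode the activators of the circadian clock. They were found by gene symbol in the platform annotation, each has a single probe set, and they are 3 of the 23279 genes measured. Their transcripts were followed through the day in hindlimb muscle of C57BL/6 mice of 8 weeks (young) and 80 weeks (aged), with GeneChip Mouse Gene 2.0 ST arrays. Mice of either age lived in 12 h of light and 12 h of darkness. Samples, taken on 2 successive days, come from ZT 0, 3, 6, 9, 12, 15, 18 and 21, where ZT (zeitgeber time) counts the hours from lights on. The 16 groups of 1 age and 1 ZT had 2 arrays each, numbered as replicates 1 and 2, and each of the 32 arrays held RNA pooled from 3 mice, so 96 mice in all. No treatment or genetic change is named in the labels. The p-values rest on the spread between pools, not between single mice. In the cosine fits and the test of age over all times, that spread also holds departures from the fitted model.

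BMAL1, the product of Arntl, pairs with CLOCK, a protein of the same basic helix-loop-helix PAS class, and the pair binds E-boxes in the DNA and switches on the genes of the Period and cryptochrome proteins. Those proteins return to the nucleus and inhibit the pair, which closes a daily loop. NPAS2 is a close relative of CLOCK that can take its place beside BMAL1. In a further loop the nuclear receptors REV-ERB (Nr1d1, Nr1d2) repress and ROR (such as Rora and Rorb) activate Arntl, and to a lesser degree Clock and Npas2, through ROR elements. In muscle this clock times genes of fuel use and of the muscle programme.

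RefSeq (GRCm38.p6) lists promoters, 250 bases before to 50 bases after a start, for all 3 genes: 2 starts of Arntl, 3 of Clock and 1 of Npas2. These were searched on both strands for the ROR element in a strict form, ANTNGGTCA, and a loose form, ANTNGGTNA, which takes in the strict one. The same search covered the shorter core of that element, AGGTCA, the E-box CACGTG and the D-box TTANGTAA, the last bound by DBP and its relatives. The matches are shown because the 3 genes differ in them. Capitals mark the motif, and positions count from the start as 1.
Arntl, loose ROR element at -8, chr7:113207493-113207522, plus strand: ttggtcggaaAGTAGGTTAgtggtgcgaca
Arntl, strict ROR element at 29, chr7:113207529-113207558, plus strand: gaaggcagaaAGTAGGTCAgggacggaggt
Clock, core of the element, reversed, at -119, chr5:76303602-76303631, minus strand: ctttggcctcTGACCTgacagatgacagat
Per1, E-box at -166, chr11:69098773-69098802, plus strand: cacccaagtcCACGTGcagggatgtgtgtg
Cry1, E-box at -60, chr10:85185095-85185124, minus strand: tgccggtggtCACGTGgggtgcatgccgcc
Nfil3, strict ROR element, reversed, at -12, chr13:52981032-52981061, minus strand: cgctcggaacTGACCTACTaacacacatct
The strict element was in 2.24% of the 32851 RefSeq promoters, the loose one in 8.36%, the core in 16.3%, the E-box in 7.15% and the D-box in 2.32%. Counted per gene, at any of its starts, the shares were 2.56%, 9.64%, 18.1%, 8.09% and 2.72% of 27025 genes. Arntl held the strict element, and neither Clock nor Npas2 held the strict or the loose one in these windows. None of the 3 activators had an E-box or a D-box there, while 4 of the 6 repressors with a listed promoter had an E-box (Per1, Cry1, Ciart and Bhlhe41). These are matches of letters and show no binding.

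Before the values, 5 arrays have to be named. The mean of 15 hepatocyte genes, such as Alb and Ttr, was over 1 log2 unit above the median array (6.17) in young ZT 6 replicate 1 (9.65), young ZT 18 replicate 2 (9.05), young ZT 3 replicate 1 (7.92), aged ZT 6 replicate 1 (7.89) and young ZT 0 replicate 1 (7.74). The next array, young ZT 6 replicate 2, had 7.12. Where leaving these arrays out ended a call on an activator or moved its value by over 1.5 times, the value without them is given with the result. Counts over all genes were recomputed as well. The values of other named genes, the correlations and the marker lists were not. The fast fibre genes, such as Ckm and Acta1, averaged 13.2 to 13.3 in young and 13.1 to 13.3 in aged arrays, near the top of the scale (13.69). In pooled tissue, fewer cells of a type and less RNA per cell cannot be told apart.

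Arntl had the widest daily range of the 3. In young muscle the replicates read 9.71 and 9.53 on the log2 scale at ZT 0, 9.62 and 9.38 at ZT 3, 8.83 and 9.04 at ZT 6 and 7.71 and 7.67 at ZT 9. In the dark phase they read 7.26 and 7.03 at ZT 12, 8.20 and 8.21 at ZT 15, 8.87 and 9.02 at ZT 18 and 9.38 and 9.39 at ZT 21. Both ZT 12 arrays lay below all others of that age, and the mean at ZT 0 was 5.54-fold that at ZT 12. The steepest 3 h step was the decline of 1.24 from ZT 6 to ZT 9 (a log2 difference of means of -1.24), and the level had regained 1.06 by ZT 15 from ZT 12. In order of their means the times ran ZT 0, 3, 21, 18, 6, 15, 9 and 12, and replicates overlapped between ZT 0 and 3, ZT 3 and 21, and ZT 18 and 6.

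In aged muscle Arntl read 9.68 and 9.70 at ZT 0, 9.51 and 9.36 at ZT 3, 8.81 and 8.62 at ZT 6 and 7.85 and 7.96 at ZT 9. At ZT 12 it read 8.03 and 7.58, at ZT 15 8.67 and 8.76, at ZT 18 9.41 and 9.19, and at ZT 21 9.72 and 9.87. The low point read shallower, though the age difference at ZT 12 alone did not pass (limma adjusted p = 0.0807). ZT 9 and ZT 12 overlapped through the ZT 12 array at 8.03, and the highest mean, at ZT 21, was 3.99-fold the lowest, at ZT 12. Of the other neighbours in order (ZT 21, 0, 3, 18, 6, 15, 9 and 12), ZT 3 overlapped with 18 and ZT 6 with 15.

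Clock moved over a much narrower range. In young muscle it read 10.39 and 10.06 at ZT 0, 10.28 and 10.21 at ZT 3, 10.06 and 10.08 at ZT 6 and 9.67 and 9.71 at ZT 9, then 9.44 and 9.31 at ZT 12, 9.65 and 9.50 at ZT 15, 9.99 and 9.67 at ZT 18 and 10.07 and 10.04 at ZT 21. In aged muscle the readings were 10.31 and 10.40 at ZT 0, 10.51 and 10.41 at ZT 3, 10.13 and 10.12 at ZT 6 and 9.94 and 9.94 at ZT 9, then 9.84 and 9.81 at ZT 12, 10.04 and 10.22 at ZT 15, 10.20 and 10.23 at ZT 18 and 10.46 and 10.47 at ZT 21. The ZT 12 arrays were the lowest at either age, and the highest mean was 1.82-fold the lowest in young and 1.56-fold in aged muscle. The young order was ZT 3, 0, 6, 21, 18, 9, 15 and 12, with overlap between ZT 3 and 0, ZT 0 and 6, ZT 6 and 21, and ZT 18 and 9. The aged order was ZT 21, 3, 0, 18, 15, 6, 9 and 12, with overlap between ZT 21 and 3, ZT 18 and 15, and ZT 15 and 6.

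Npas2, the alternative partner of BMAL1, was the noisiest and the lowest in level. The array medians over all probe sets ran from 5.98 to 6.08, and RMA shrinks differences of weak probe sets. Npas2 averaged 5.87 in young and 5.88 in aged muscle, against 8.68 and 8.92 for Arntl and 9.88 and 10.2 for Clock. In young muscle it read 6.78 and 6.99 at ZT 0, 6.87 and 6.59 at ZT 3, 5.88 and 6.24 at ZT 6 and 5.43 and 4.04 at ZT 9, then 5.38 and 5.18 at ZT 12, 5.26 and 5.46 at ZT 15, 5.22 and 5.64 at ZT 18 and 6.53 and 6.44 at ZT 21. In aged muscle it read 6.53 and 6.48 at ZT 0, 6.60 and 6.05 at ZT 3, 5.74 and 5.61 at ZT 6 and 5.75 and 5.13 at ZT 9, then 5.09 and 5.67 at ZT 12, 5.27 and 5.75 at ZT 15, 5.72 and 5.75 at ZT 18 and 6.92 and 6.02 at ZT 21. At both ages the means of ZT 21, 0 and 3 were the 3 highest, and below them lay a floor of the 4 times from ZT 9 to ZT 18 in young and of the 5 times from ZT 6 to ZT 18 in aged muscle. The low young replicate 2 at ZT 9 (4.04) lay 1.39 below its partner and set the young minimum. The highest mean was 4.44-fold the lowest in young and 2.18-fold in aged muscle. The young order was ZT 0, 3, 21, 6, 18, 15, 12 and 9, and neighbours overlapped between ZT 0 and 3 and from ZT 18 down to ZT 9. In the aged order, ZT 0, 21, 3, 18, 6, 15, 9 and 12, all neighbours overlapped except ZT 3 and 18.

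The SD between replicates, over the 16 groups, was 0.13 for Arntl, 0.098 for Clock and 0.38 for Npas2, against a median of 0.18 over all genes. Arntl and Clock were thus measured more closely than the median gene, and Npas2 less closely.

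**Figure D1:**
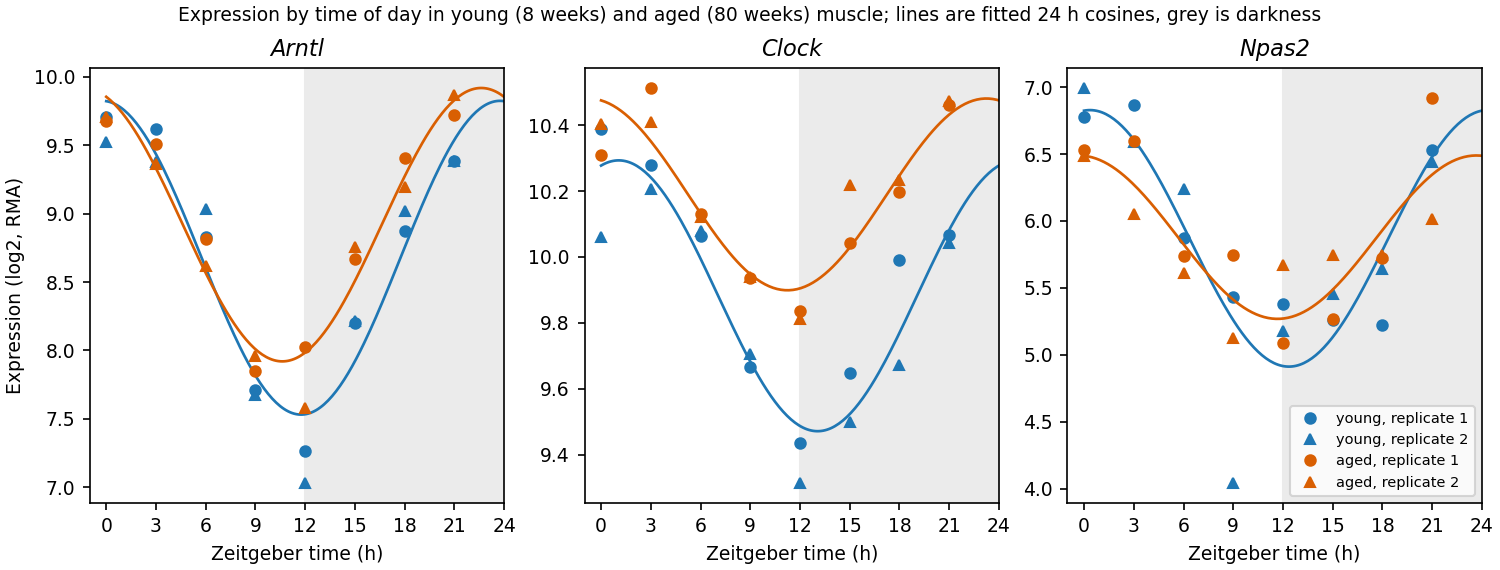
Expression of Arntl, Clock and Npas2 (log2, RMA; the vertical scales differ) against ZT in hours, with each array as a point, circles for replicate 1 and triangles for replicate 2, blue for young and orange for aged. Lines are the fitted 24 h cosines; all 3 genes are low around ZT 9 to 12, and most aged points of Clock lie above the young ones, while the Npas2 array at 4.04 stands alone.

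All 3 activators were rhythmic at both ages, as were 0.541% of all genes. A cosine of 24 h was fitted to each age, with its amplitude measured from the mean to the peak. Arntl had an amplitude of 1.15 ± 0.082 in young (log2, SE, n = 16; limma adjusted p = 4.78e-10) and 1.00 ± 0.082 in aged muscle (adjusted p = 1.66e-08). Clock had 0.41 ± 0.042 in young (adjusted p = 4.96e-07) and 0.29 ± 0.042 in aged muscle (adjusted p = 0.000462), and Npas2 had 0.96 ± 0.12 (adjusted p = 4.11e-05) and 0.61 ± 0.12 (adjusted p = 0.0285). Of all genes tested, 1.92% were called rhythmic in young and 0.696% in aged muscle. Ranked by amplitude among the 23279 genes, Arntl was number 11 in young and 4 in aged, Npas2 15 and 39, and Clock 284 and 516. The aged rhythm of Npas2 lost its call without the 5 arrays named above (amplitude 0.61, adjusted p = 0.0741). It did so as well without any 1 of 7 aged arrays (replicate 1 at ZT 0, 3, 12, 15 and 21 and replicate 2 at ZT 0 and 9), with amplitudes of 0.55 to 0.61, and with replicate 1 or 2 alone it was 0.80 or 0.44. With 1 replicate alone aged Clock did not pass either (0.30 and 0.29), nor young Npas2 with replicate 2 alone (1.08).

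Windows on opposite sides of the day were compared within each age. In early light (ZT 0 and 3) young Arntl was 3.68-fold higher than in early dark (ZT 12 and 15; log2 difference 1.88 ± 0.10, adjusted p = 4.63e-10), young Npas2 2.81-fold (1.49 ± 0.24, adjusted p = 0.00250) and young Clock 1.69-fold (0.76 ± 0.083, adjusted p = 2.33e-05), where 0.455% of all genes passed. In aged muscle, where 0.146% of genes passed, Arntl differed by 1.31 (adjusted p = 4.62e-07) and Clock by 0.43 (adjusted p = 0.0300), and Npas2 at 0.97 did not pass (adjusted p = 0.177). Late light (ZT 6 and 9) against late dark (ZT 18 and 21) separated Arntl alone of the 3: the difference was -0.85 in young (adjusted p = 0.000136; 0.412% of genes passed) and -1.24 in aged muscle (adjusted p = 1.23e-06; 0.146%). For Clock it was -0.064 and -0.31, and for Npas2 -0.56 and -0.55, with adjusted p from 0.241 to 0.844. Without the 5 arrays the young values were -0.14 for Clock and -0.37 for Npas2. The young Npas2 call in the early windows was lost without the 5 arrays (1.48, adjusted p = 0.116). The aged Clock call there was lost without any 1 of its 8 arrays other than ZT 15 replicate 2 (0.39 to 0.46), and the aged Npas2 difference, still 0.97, passed without young ZT 9 replicate 1 or 2.

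The activators peaked within about 2 h of lights on. In young muscle the fitted peak of Arntl lay at ZT 23.8 ± 0.272 (SE), that of Npas2 at ZT 0.358 ± 0.496 and that of Clock at ZT 1.06 ± 0.387. In aged muscle the peaks lay at ZT 22.6 ± 0.312 for Arntl, 23.2 ± 0.546 for Clock and 23.7 ± 0.779 for Npas2. Clock followed Arntl by 1.31 ± 0.472 h in young and by 0.621 ± 0.629 h in aged muscle, and Npas2 followed Arntl by 0.604 ± 0.566 h and 1.05 ± 0.839 h. Each peak was earlier in aged muscle, by -1.13 ± 0.413 h for Arntl, -1.82 ± 0.669 h for Clock and -0.69 ± 0.923 h for Npas2, and each aged amplitude was smaller, by -0.15 ± 0.115, -0.12 ± 0.059 and -0.35 ± 0.176. These age differences in rhythm did not pass the test: limma's adjusted p was 0.852 for Arntl (unadjusted 0.0183), 0.836 for Clock (unadjusted 0.00671) and 0.914 for Npas2 (unadjusted 0.122), and of all genes 0 passed (1293 at an unadjusted p under 0.05). Without the 5 arrays the shifts were -1.18, -1.50 and -0.42 h, and without a further one, young ZT 6 replicate 2, they were -0.683, -1.11 and -0.0306 h. Limma's unadjusted p stayed under 0.05 for Arntl alone without the 5 arrays, and for none of the 3 without the further one. The Npas2 shift was -1.34 h without young ZT 9 replicate 2 and -0.29 h without aged ZT 21 replicate 1. The Arntl amplitude difference was -0.070 without young ZT 12 replicate 2 and -0.21 without aged ZT 12 replicate 2. The shift of Clock also rested on which replicate was used, -2.80 h with replicate 2 alone and -0.869 h with replicate 1 alone.

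In the main fit the Arntl profile held more than a plain cosine, but most alternatives lost this call. A 12 h wave added to the fit had an amplitude of 0.24 ± 0.038 in Arntl (n = 32, limma adjusted p = 0.0350), which 0.00859% of all genes, 2 in number, passed. It was 0.32 ± 0.051 in young and 0.17 ± 0.054 in aged muscle, and its maxima fell near ZT 5.02 and ZT 4.64 and 12 h later. In Clock the wave was 0.067 and in Npas2 0.18 (adjusted p = 0.999 for each). With replicate 2 or replicate 1 alone the Arntl wave was 0.27 or 0.23. The Arntl call was lost without the 5 arrays (0.24, adjusted p = 0.676) and without any of 24 of the 32 arrays taken singly (0.22 to 0.26 over all 32).

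Arntl and Clock were higher in aged muscle, and Npas2 did not pass the test. With the time of day held fixed, aged minus young was 0.31 ± 0.047 for Clock (1.24-fold, limma adjusted p = 2.61e-05), 0.24 ± 0.068 for Arntl (1.18-fold, adjusted p = 0.0129) and 0.0089 ± 0.13 for Npas2 (adjusted p = 0.976). An age difference is common in these data: 17.2% of all genes passed, 9.67% as higher and 7.51% as lower, and the median over all genes was -0.0085. Without the 5 arrays, 4 of which are young, the differences were 0.34 for Clock (adjusted p = 2.01e-05), 0.31 for Arntl (adjusted p = 0.00642) and 0.071 for Npas2, and without young ZT 6 replicate 2 as well they were 0.36, 0.37 and 0.13. With replicate 2 or replicate 1 alone the Arntl difference was 0.22 or 0.26 and did not pass, and with replicate 1 alone the Clock difference was 0.24 and did not pass.

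By time of day, Arntl and Clock passed the test of age in the dark windows and not in the light ones. For Clock both aged arrays lay above both young ones at 7 of 8 times (the exception was ZT 0), which 1.99% of all genes reached at 7 or more. For Arntl this held at the 5 times from ZT 9 to ZT 21 (7.50% of genes at 5 or more), and at ZT 6 both aged arrays lay below (69.7% of genes at 1 or more). For Npas2 the aged arrays lay above at 1 time (68.4% of genes at 1 or more) and below at 2 (43.3% at 2 or more). In early dark aged Arntl was higher by 0.58 ± 0.10 (1.49-fold, limma adjusted p = 0.00670) and aged Clock by 0.50 ± 0.083 (1.42-fold, adjusted p = 0.00431), where 0.563% of genes passed, 0.344% as higher. In late dark Arntl was higher by 0.38 ± 0.10 (adjusted p = 0.0372) and Clock by 0.40 ± 0.083 (adjusted p = 0.0121), where 3.49% passed, 1.99% as higher.

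In the light phase neither gene passed. Arntl differed by 0.0072 ± 0.10 in early light and -0.0043 ± 0.10 in late light (adjusted p = 0.985 and 0.989), and Clock by 0.18 ± 0.083 and 0.15 ± 0.083 (adjusted p = 0.401 and 0.332). Without the 5 arrays early light Clock was 0.28 (unadjusted p = 0.00917, adjusted p = 0.348), early light Arntl 0.11 and late light Arntl -0.10. Npas2 differed by -0.39 ± 0.24 in early light (adjusted p = 0.528), and by 0.16, 0.13 and 0.14 in the later windows (adjusted p = 0.776, 0.936 and 0.871). Those 3 values turned to -0.19, -0.020 and -0.082 without young ZT 9 replicate 2, aged ZT 12 replicate 2 and aged ZT 21 replicate 1 in turn, and without the 5 arrays late light and late dark Npas2 were 0.039 and 0.25. Of all genes 0.382% passed in early light and 2.47% in late light. That the age difference itself varied with ZT was not shown: over the 8 times the F test gave an unadjusted p of 0.00403 for Arntl, 0.0886 for Clock and 0.291 for Npas2, with an adjusted p of 1.00 for each and 0 genes passing in limma (771 at an unadjusted p under 0.05). At single times the largest differences were 0.65 ± 0.14 for Arntl at ZT 12 (adjusted p = 0.0807), 0.56 ± 0.12 for Clock at ZT 15 (adjusted p = 0.102) and 0.70 ± 0.34 for Npas2 at ZT 9 (adjusted p = 0.419), the time of the low young array.

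The late dark calls were the less secure ones. Without the 5 arrays late dark Arntl was 0.42 (adjusted p = 0.0791) and Clock 0.32 (adjusted p = 0.0790). The late dark call of Arntl was lost without any 1 of its 8 arrays (0.33 to 0.44), that of Clock without young ZT 18 replicate 2 (0.32) or young ZT 21 replicate 2 (0.39), and the early dark call of Arntl without aged ZT 12 replicate 1 (0.47, adjusted p = 0.0592).

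**Figure D2:**
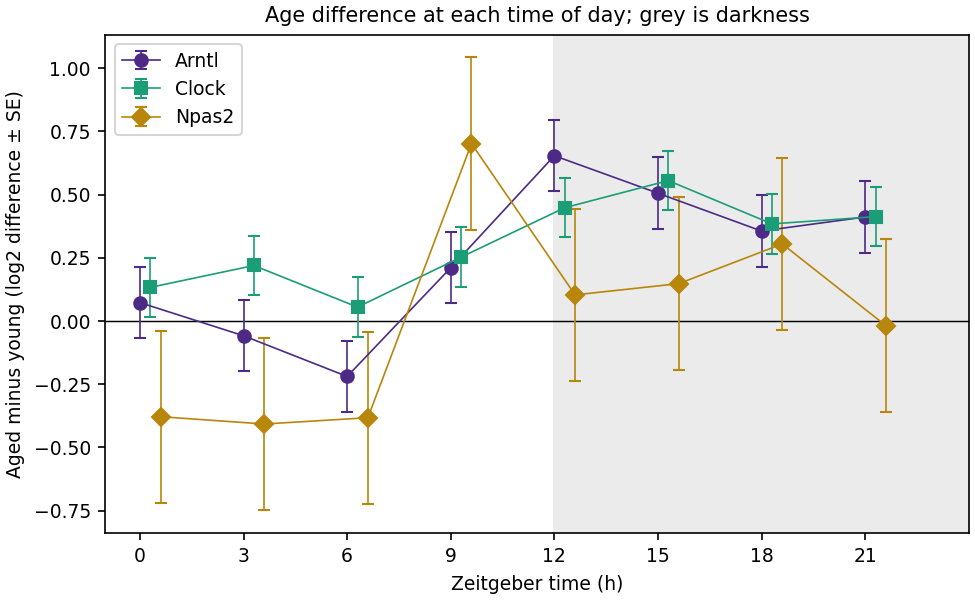
Aged minus young difference of Arntl, Clock and Npas2 (log2, difference of 2 group means of 2 arrays each, error bars SE from limma) at each ZT in hours; points of the 3 genes are set slightly apart sideways. Arntl and Clock lie between 0.36 and 0.65 at the 4 dark times, and Arntl lies at -0.22 at ZT 6.

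Cell markers also differed between the ages, beside 7.51% of all genes lower and 9.67% higher in aged muscle. Aged arrays had lower levels of 4 of 6 slow fibre genes (list mean 8.22 to 10.3 in young and 7.11 to 10.04 in aged arrays), 4 of 7 fast fibre, 4 of 5 endothelial (8.53 to 9.17 and 8.48 to 8.89), 2 of 4 satellite cell, 2 of 15 hepatocyte and 1 of 5 fibroblast genes. They had higher levels of 3 of 6 macrophage genes (6.43 to 6.93 and 6.47 to 7.63). At an unadjusted p under 0.05 in limma, in either direction, the counts of these 7 lists in the same order were 5, 4, 5, 3, 10, 4 and 6, beside 29.2% of all genes. Of the 5 arrays named for their hepatocyte genes, 4 are young. None of 5 adipocyte (6.29 to 9.24 and 6.30 to 9.65), 2 Schwann cell or 4 keratinocyte genes passed in limma (4, 0 and 0 at an unadjusted p under 0.05). For rhythm with the ages together 3.60% of all genes passed. Among the markers it was 3 of 5 endothelial, 2 of 6 macrophage, 2 of 5 fibroblast and 2 of 6 slow fibre genes. For fast fibre genes it was 0 of 7 and for hepatocyte genes 0 of 15. The part of these cell types in the rhythms and age differences of the activators was not tested.

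The 3 transcripts moved together through the day. Over the 16 group means, with each age centred on its own mean, Pearson's r was 0.946 between Arntl and Clock, 0.867 between Arntl and Npas2 and 0.877 between Clock and Npas2. The points share their arrays and their normalisation. The differences between the replicates of a group, which hold no time of day, gave r of 0.15, -0.11 and -0.20 over 16 groups.

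By the same measure over all genes, Clock was the fourth most like Arntl, after Wsb1 (0.954), Sdc4 (0.951), a cell surface proteoglycan gene, and Plekhg1 (0.951), and before Pim1 (0.944), a kinase gene. The most opposite to Arntl were Per3 (-0.960), Tnfrsf21 (-0.953), Fzd4 (-0.945), Gm9895 (-0.941) and Dbp (-0.940). The profile of Clock was most like those of Plekhg1 (0.957), Arntl, Rab11fip3 (0.941), Dyrk2 (0.939) and Nfatc3 (0.928), and most opposite to those of Usp2 (-0.954), Per1 (-0.948), Snrk (-0.947), Tcap (-0.939) and Sgk1 (-0.928). Npas2 had Arhgap20 (0.921), Rflnb (0.921), Myo10 (0.905), Dyrk2 (0.899) and Slbp (0.889) nearest, and Tcap (-0.937), Usp2 (-0.930), Hlf (-0.902), Mylk4 (-0.900) and Stk35 (-0.895) farthest. Plekhg1 and Dyrk2 thus stood in the nearest 5 of more than 1 activator, and Usp2, a deubiquitinase gene, and Tcap, a sarcomere gene, in the farthest 5 of both Clock and Npas2. Of the 13 nearest genes 3 held a loose ROR element in a RefSeq promoter (Arntl, Plekhg1 and Wsb1), against 0 of the 12 farthest genes with a promoter listed, and 3 of each group held an E-box. Over all genes with a listed promoter 9.64% held the loose element and 8.09% the E-box, and Arntl, shown above, is 1 of the 3.

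**Figure D3:**
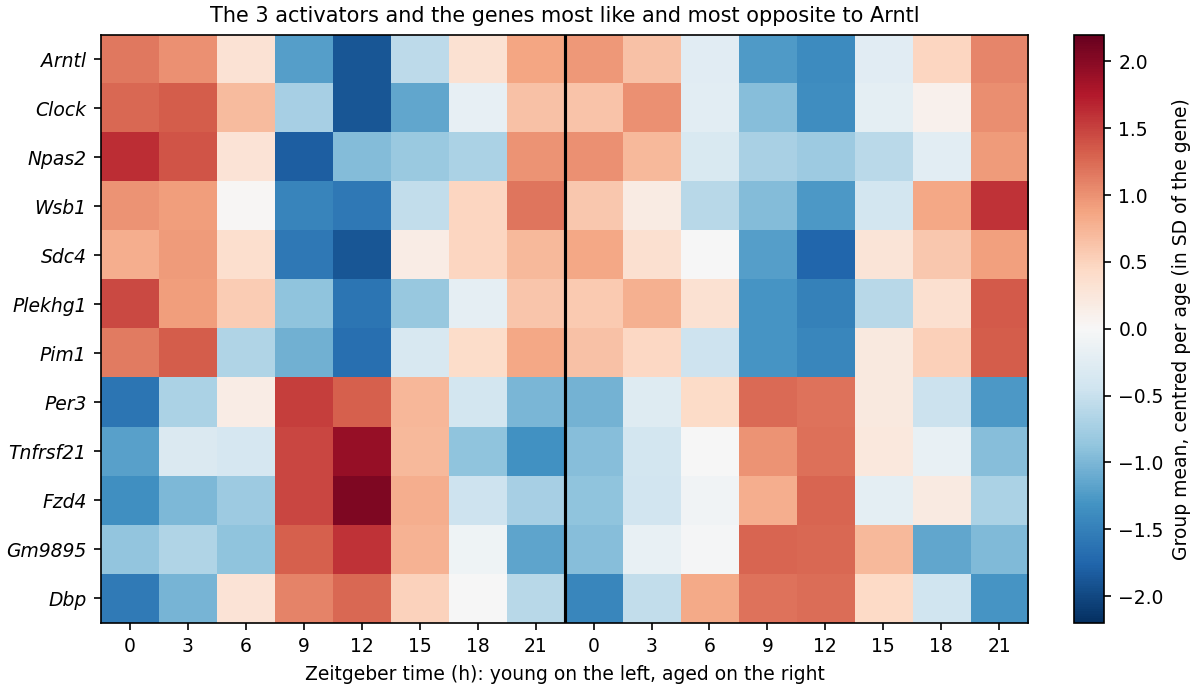
Group means of the 3 activators, of the genes with the highest r to Arntl and of those with the lowest, each centred per age and divided by the gene's own SD (colour scale), by ZT in hours, with young on the left and aged on the right of the black line. The rows from Arntl to Pim1 are low (blue) at ZT 9 and 12 at both ages, and the rows from Per3 to Dbp are high (red) there.

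The repressors of the activators were rhythmic without exception: 8 of 8 in young, 8 in aged and 8 with the ages together, where 3.60% of all genes passed. Per1 had the largest amplitude of the list, 1.23 ± 0.107 in young and 0.96 ± 0.107 in aged muscle. Its peaks lay at ZT 12.4 and 11.9, at the trough of Arntl. Per2 (0.86 and 0.72) peaked at ZT 14.0 and 12.7 and Per3 (0.84 and 0.71) at ZT 11.1 and 10.1. Ciart, which encodes a repressor that binds the activator pair, had 0.74 and 0.83 with peaks at ZT 9.38 and 8.79. Bhlhe40 (0.32 and 0.36) and Bhlhe41 (0.36 and 0.44), whose products compete for E-boxes, peaked between ZT 7.31 and 8.93. With age, Cry2 (0.28) and Bhlhe40 (0.19) were higher and Ciart lower (-0.24), and the other 5 did not pass. Of all genes 9.67% passed as higher and 7.51% as lower. Cry2 is named here after its values were seen.

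Of 4 measured receptors (5 listed) that act on the activators' own transcription, the 2 REV-ERB genes were rhythmic. Nr1d1 had an amplitude of 1.36 ± 0.107 in young and 1.19 ± 0.107 in aged muscle, and peaked at ZT 5.72 and 5.20, ahead of the Arntl trough. Nr1d2 had 0.37 and 0.30, with peaks at ZT 10.9 and 9.21. The ROR genes did not pass limma's adjusted test for rhythm (Rora at 0.085 and 0.085, Rorb at 0.11 and 0.24). With the ages together all 4 receptors had an unadjusted p under 0.05 in limma, as had 14.8% of all genes. Both ROR genes were higher in aged muscle, as were 9.67% of all genes. The difference was 0.26 ± 0.038 for Rora (limma adjusted p = 1.6e-05) and 0.28 ± 0.075 for Rorb (adjusted p = 0.0078).

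None of the 11 other genes of the activators' protein class passed limma's test for rhythm or for age. At an unadjusted p under 0.05 it was 1 for rhythm with the ages together and 3 for age. Of all genes 14.8% and 29.2% had such a p. Arntl2, the closest relative of Arntl, had an amplitude with the ages together of 0.11 ± 0.037 (adjusted p = 0.240), Sim2 had 0.089 and Sim1 0.074, and Arnt, a common partner of the class, Ahr, the receptor for foreign aromatic compounds, and Npas4 had 0.054 each. Of 14 measured modifiers and cofactors (16 listed), which phosphorylate, degrade, acetylate or assist the activators and their repressors, 0 were rhythmic in limma. With the ages together 2 had an unadjusted p under 0.05, beside 14.8% of all genes. Csnk1e came nearest at 0.11 ± 0.028 (adjusted p = 0.0545). With age Csnk2a1, Sirt1 and Kat2b were higher and Nono lower, 3 and 1 of the 14, where 9.67% and 7.51% of all genes passed.

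The 15 targets of the clock held 10 rhythmic genes in young, 9 in aged and 10 with the ages together. Of all genes 1.92%, 0.696% and 3.60% passed these tests. Dbp, which carries the signal on to D-boxes, had 0.99 and 1.08 with peaks at ZT 11.7 and 10.4, and Nfil3, its antagonist, had 0.70 and 0.64 with peaks at ZT 20.9 and 19.6. Wee1, a cell cycle kinase gene (ZT 15.4 and 13.8), Usp2 (ZT 12.9 and 11.9), Myod1, a muscle transcription factor gene (ZT 18.8 and 18.6), and Tbc1d1, a regulator of glucose uptake (ZT 18.4 and 17.4), followed. Hk2 and Pdp1 were higher in aged muscle and Slc2a4, the glucose transporter gene GLUT4, was lower. These are 2 and 1 of the 15 targets, near the 9.67% and 7.51% of all genes that passed.

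Of the 52 genes in these lists, 20 were rhythmic with the ages together, where 3.60% of all genes passed. Of these 20 genes, 19 had an earlier fitted peak in aged muscle, the exception being Hlf (0.19 h later). Their median shift was -1.06 h and the range reached -3.27 h for Cry2, beside a median of -0.31 h over the 837 genes rhythmic with the ages together. These genes share the same arrays, so their shifts are not independent of each other, and none of these genes passed the test of a rhythm difference. Their peaks were not refitted without the arrays with liver transcripts. The aged amplitude was smaller in 12 of the 20, and over the 837 genes the median log2 ratio of aged to young amplitude was -0.24. Shares of the 837 genes with an earlier aged peak or a smaller aged amplitude were not counted.

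**Figure D4:**
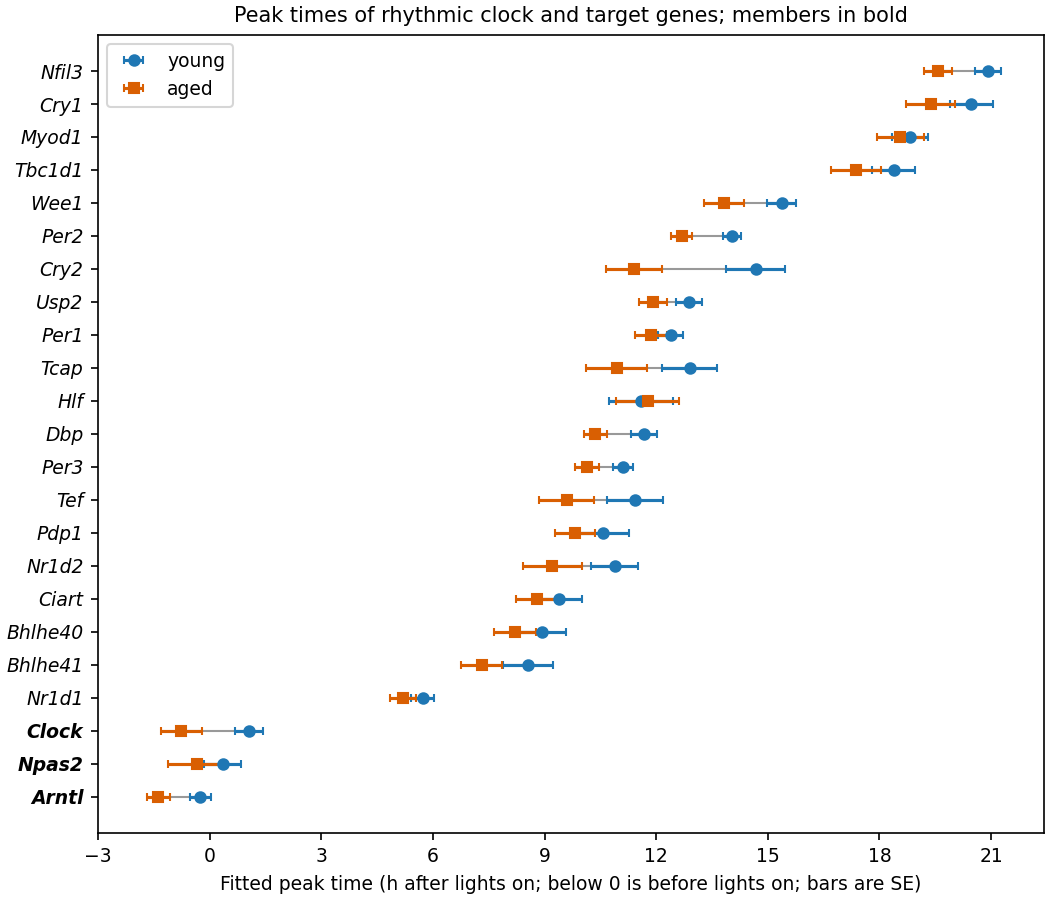
Fitted peak times in hours after lights on (values below 0 lie before lights on) in young (blue circles) and aged (orange squares) muscle for the 3 activators, in bold, and the 20 rhythmic genes of the lists, with SE bars. The activators peak within about 2 h of lights on and the Per genes near ZT 10 to 14; the orange square lies to the left of the blue circle for every gene but Hlf.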

How the data were processed

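Hindlimb muscle RNA of young and aged C57BL/6 mice was measured on 32 arrays. The authors deposited log2 values for 24479 probe sets, made with R 3.2.2 and affy 1.44.1 by RMA, which corrects background, normalises arrays and summarises probes, per the submitters' processing notes. RMA shrinks differences of weak probe sets. How probe sets were defined, and on which build, is not given in the sources used here. The annotation gave 1 symbol for 23281 probe sets, several for 0 and none for 1198, and 23279 genes were kept without a filter on level, the probe set of highest mean standing for a gene with several.

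Tests used limma 3.58.1 in R 4.3.3 on all 32 arrays, with Benjamini-Hochberg adjustment over all genes and a threshold of 0.05: a 24 h cosinor per age, one common to the ages, added 12 h terms, age with ZT as a factor, and a model of the 16 groups. SEs of peak times are approximate. Array number limits precision. The functions were tested on simulated data. The members and lists were chosen with earlier results of these data known. Named are the members, up to 6 genes per list by amplitude, and the 5 genes most and least like each member; genes called with age in a list, and the extreme peak shifts, were named after their values were seen. No 2 arrays were duplicates: the smallest root mean square difference of 2 arrays was 0.237.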

Additional observations from a re-analysis of the deposited data

How the results depend on the processing

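The results were recomputed with a replicate block, without single arrays, without either replicate, with a filter on level, quantile normalisation, array weights, a trended robust prior, other model terms, and without arrays with liver transcripts (5 by the rule set out first, 6 in an alternative added after seeing the data, which leaves young ZT 6 empty). None reversed a called value of the 3 activators. The labels do not say that a replicate number marks a day. Replicate differences of 120 pairs of groups correlated at -0.234 to 0.311 (median 0.027, 32 pairs over 0.1). With the replicate block the genes rhythmic in young were 468, against 448 without it, and no call on the activators changed.

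Without the 5 liver arrays the calls were lost for the aged Npas2 rhythm (0.61), the Arntl 12 h wave (0.24), late dark Arntl (0.42) and Clock (0.32), and Npas2 in early light against early dark in young (1.48). Without 6 arrays the aged Npas2 rhythm (0.61) and the Arntl 12 h wave (0.20) were lost, and the peak shifts were -0.683 h for Arntl and -1.11 h for Clock. With ZT as a factor the aged rhythms of Clock (0.32, adjusted p = 0.0631) and Npas2 (0.56, adjusted p = 0.698) did not pass. The age difference of Arntl did not pass with cosine and sine in place of ZT (0.24, adjusted p = 0.0596), the 12 h wave with array weights (0.23, adjusted p = 0.105), nor aged Clock in early light against early dark with quantile normalisation (0.42, adjusted p = 0.0883). The causes were not tested.

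Leaving out 1 array or 1 replicate gave amplitudes of 0.85 to 1.08 for Npas2 in young, 0.44 to 0.80 in aged and 0.72 to 0.83 together, 0.28 to 0.32 for aged Clock, and 0.22 to 0.27 for the Arntl 12 h wave. It gave age differences of 0.20 to 0.27 for Arntl and 0.24 to 0.38 for Clock, 0.47 to 0.69 for early dark Arntl, 0.33 to 0.44 for late dark Arntl and 0.32 to 0.48 for late dark Clock. Early light minus early dark in aged muscle ran from 0.39 to 0.48 for Clock and from 0.83 to 1.12 for Npas2. The Clock shift ran from -2.80 to -0.869 h and the Npas2 amplitude difference from -0.65 to -0.064.

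Over all genes, the 448 rhythmic in young became 292 with each age fitted alone, 255 without 6 liver arrays and 104 with ZT as a factor, the 162 in aged 98, 255 with array weights and 32, and the 837 together 309 with ZT as a factor. With 1 replicate alone they were 35 and 77, 8 and 20, and 150 and 224, and the 3998 with an age difference were 1781 and 1617. The 2 with a 12 h wave became 0 to 3. Without the 5 liver arrays the age counts were 38 against 89 in early light, 239 against 575 in late light, 86 against 131 in early dark and 267 against 813 in late dark, and with array weights 161, 216 and 1505 in early light, early dark and late dark. Leaving out 1 array gave 42 to 141 in early light, 171 to 671 in late light, 44 to 182 in early dark and 212 to 981 in late dark. It gave 49 to 136 for late light against late dark in young (96) and 19 to 35 in aged (34), and 60 to 115 for early light against early dark in young (106) and 16 to 70 in aged (34). Early light gave 164 with a filter and 153 with the robust prior. Early light against early dark gave 30 in place of 106 in young and 22 in place of 34 in aged without the 5 arrays, and 57 in aged with weights. Late light against late dark in aged gave 54 with a filter and 73 with weights in place of 34.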
